A study of Mus musculus with 29 samples.

Results

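The TRBJ1 cluster is the first of the joining (J) segment clusters of the T cell receptor beta locus. It was followed here through its segments TRBJ1-1 to TRBJ1-6 in brain and ovary metastases of mouse melanoma that carries mutated Braf. Its members were all productive beta chain (TRB) clonotypes whose J segment name begins with J1, a clonotype being a V segment, a J segment and the amino acid sequence of the CDR3 between them, and productive meaning a CDR3 made of the usual amino acids alone. They numbered 8995 of 27384 productive TRB clonotypes (32.8%) and held 89442 of 289365 TRB counts (30.9%). The other 18389 clonotypes used the TRBJ2 cluster.

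A T cell builds its beta chain gene by joining a D segment to a J segment and then a V segment to the D-J unit. The locus is a tandem duplication: TRBD1, the TRBJ1 segments and the constant gene TRBC1 come first, followed by TRBD2, the TRBJ2 segments and TRBC2. TRBD1 can join either J cluster, whereas TRBD2 lies downstream of TRBJ1 and usually joins TRBJ2. A cell that first used TRBJ1 can rearrange again with TRBD2 and TRBJ2. Joining TRBJ2 to a V segment that lies upstream of both clusters removes the TRBJ1 segments of that allele. J choice is fixed in the thymus, so in a tumour it is a tag of the T cell clones present. All 12 J names of the table matched the RefSeq gene table of GRCm38.p6, which lists the same order (Trbd1, the Trbj1 genes, Trbc1, Trbd2, the Trbj2 genes, Trbc2). The table used here names 6 of its 7 Trbj1 genes.

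Each TRBJ1 segment ends the CDR3 with its own run of residues, and these runs are what tells the 6 segments apart in the sequences shown later. The runs below are the residues that most clonotypes of a segment share, counted from the end of the CDR3 for as long as 1 residue is found in at least 50% of its clonotypes.
TRBJ1-1: TEVFF
TRBJ1-2: NSDYTF
TRBJ1-3: SGNTLYF
TRBJ1-4: NERLFF
TRBJ1-5: NQAPLF
TRBJ1-6: YNSPLYF
The whole run was kept in 78.0% of TRBJ1-1, 62.5% of TRBJ1-2, 57.2% of TRBJ1-3, 76.1% of TRBJ1-4, 73.6% of TRBJ1-5 and 56.6% of TRBJ1-6 clonotypes. The others differed from the run at 1 or more residues, often but not always at its start. In TRBJ1-1, for instance, 84.3% of clonotypes kept the first residue of the run.

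T cell receptor transcripts were counted in 29 samples, 19 from brain and 10 from ovary metastases. The 5 treatments were none (day 0, called vehicle in the sample titles), an anti-PD-L1 antibody lead-in (day 0), the MEK inhibitor trametinib (day 3), both drugs begun together (day 3, the concurrent combination), and a lead-in to which both drugs were then added (day 3, the lead-in combination). All samples come from the same metastasis model. Brain was represented by 3 samples without treatment and 4 per remaining treatment, and ovary by 2 per treatment. Sample titles give a number and, for all but 1 sample, part 1 or 2 of it: each brain treatment had 2 numbers, each ovary treatment 1, and numbers 1, 3, 10, 12 and 13 were sampled in both organs. What a number stands for (an animal, for instance) is not stated. Parts of a number share clonotypes, so values of parts were averaged and numbers were the unit of every exact test, whose p-values measure the spread between numbers. The strain, sex, age and the cells that carried the tumour are not given in the labels used here. The table lists T cell receptor chains only, so no marker of brain, ovary, melanoma or any other cell type could be checked.

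Brain samples held 266 to 7067 TRB counts, of which 86 to 2015 were TRBJ1. Ovary samples held 16179 to 51674, of which 4723 to 15758 were TRBJ1. The measures below are shares within TRB, so the total yield does not enter them directly, but shallow samples have wide counting errors. In these bulk samples fewer T cells of a clone and less receptor RNA per cell cannot be told apart.

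TRBJ1 was the smaller cluster in every sample. In brain it held 32.5% ± 4.9 (SD, n = 10 numbers) of TRB counts and 32.3% ± 2.4 of distinct TRB clonotypes, against 67.5% ± 4.9 and 67.7% ± 2.4 for TRBJ2. Its share was below that of TRBJ2 in 10 of 10 brain numbers by both measures (exact two-sided sign-flip p = 0.00195, the smallest this test can give, adjusted p = 0.00488 over 5 measures). In ovary it held 30.9% ± 2.0 (n = 5 numbers) of counts and 32.7% ± 0.9 of clonotypes, and was below TRBJ2 in 5 of 5 numbers (exact sign-flip p = 0.0625, the smallest that 5 numbers allow, adjusted p = 0.104).

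The share of distinct clonotypes varied less than the share of counts. Over brain numbers the clonotype share ran from 28.4% (trametinib number 8) to 35.7% (untreated number 3), and the count share from 23.8% (lead-in combination number 14) to 37.6% (concurrent number 1). The parts of a brain number differed by a median of 2.18 percentage points in clonotype share and 3.16 in count share. Those differences reached 4.52 and 5.77 points.

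**Figure D1:**
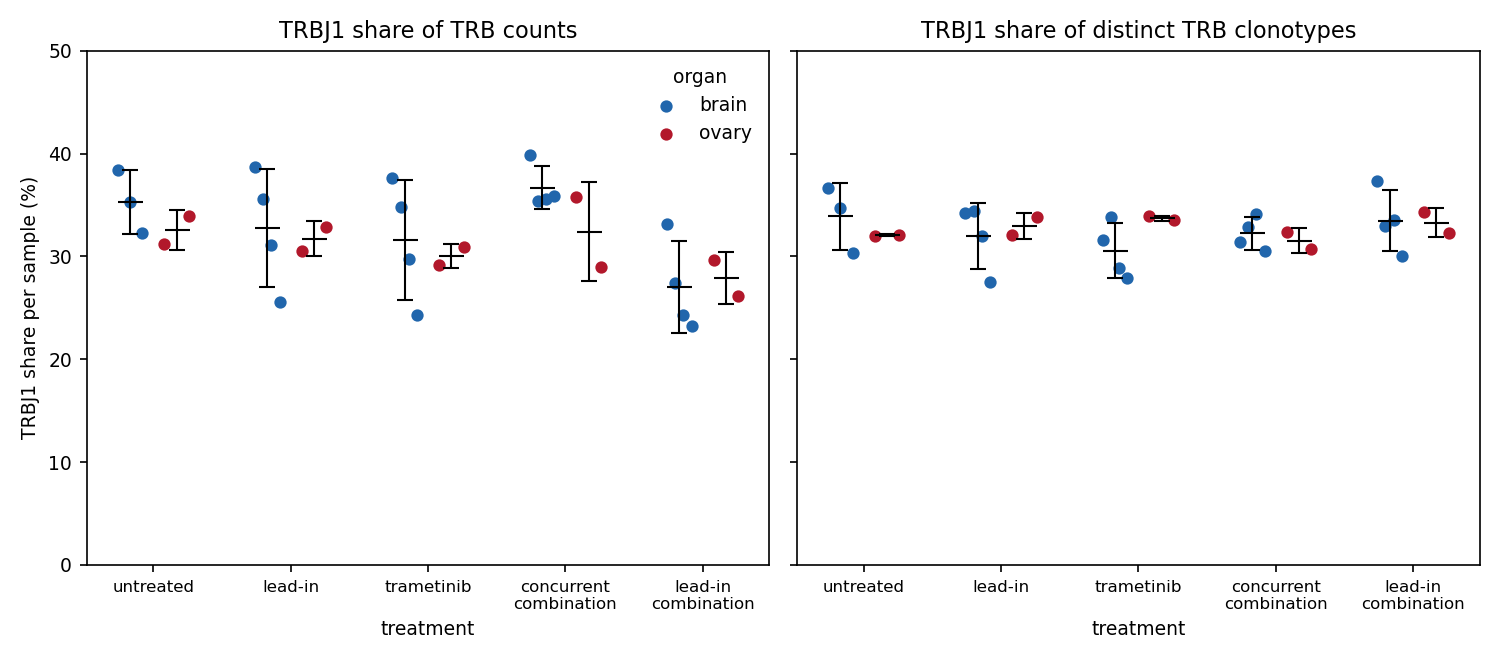
TRBJ1 share (%) of TRB counts (left) and of distinct TRB clonotypes (right), a point per sample, by treatment and organ (blue, brain; red, ovary), with the mean and SD over samples in black. The clonotype share stays between 27.5% and 37.3% in every sample, and the lowest count shares, 23.3% and 24.3%, include both parts of number 14 in the brain lead-in combination.

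Across treatments in brain, the mean TRBJ1 count share was highest in the concurrent combination and lowest in the lead-in combination. Both ranges overlapped those of the untreated, lead-in and trametinib samples, but not each other. No tested difference passed, and the cluster's share was not tested between these combinations alone. The 3 untreated samples had count shares of 38.4%, 35.3% and 32.2%. The 4 lead-in samples had 38.7%, 35.6%, 31.1% and 25.5%, spanning nearly the whole range of the organ. The trametinib samples had 37.6%, 34.8%, 29.8% and 24.3%. Again number 13 (the first pair) was high and number 8 low, with no overlap between them. The concurrent samples had 39.8%, 35.4%, 35.6% and 35.9%. The lead-in combination had 33.2%, 27.4%, 24.3% and 23.3%, and all 4 lay below all 4 concurrent samples. Group means over samples were 35.3% ± 3.1 (SD, n = 3), 32.7% ± 5.7 (n = 4), 31.6% ± 5.9 (n = 4), 36.7% ± 2.1 (n = 4) and 27.0% ± 4.5 (n = 4), in the same order. Here and below, treatment SDs over samples include parts of the same number, so they mix the spread within and between numbers.

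The clonotype share did not follow that order. Without treatment it was 33.9% ± 3.2 (SD, n = 3), and it was 32.0% ± 3.2 (n = 4) in the lead-in, 30.6% ± 2.7 in trametinib, 32.2% ± 1.6 in the concurrent and 33.5% ± 3.0 in the lead-in combination. Every treatment overlapped every other.

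Over the 10 numbers the count share was 4.85 percentage points lower where a lead-in had been given, comparing numbers of the same day (p = 0.156 by an exact permutation test, two-sided, and 0.972 after adjustment over 16 tests). The lead-in contrast compares, on day 3, the lead-in combination with trametinib and the concurrent combination together. The count share was 0.64 points lower with any anti-PD-L1 (exact permutation p = 0.867) and 1.86 points lower with trametinib (exact permutation p = 0.576), and the sign of both turned under some alternatives. Differences among the 5 treatments made up 47.8% of its variation in squares (exact permutation p = 0.422). The clonotype share differed by 0.76 points for the lead-in (p = 0.644, exact permutation test), by 0.89 for anti-PD-L1 (p = 0.600) and by -0.41 for trametinib (p = 0.786). None of the 16 tests on 4 TRBJ1 measures passed, and adjusted p-values were 0.972 or above. Trametinib was given only to day 3 samples, so drug and day cannot be told apart.

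The shares of counts and of clonotypes parted most in 3 brain numbers. In number 14 the parts had 24.3% and 23.3% of counts against 33.5% and 30.1% of clonotypes. A TRBJ2-1 clonotype held 11.8% and 14.3% of TRB counts there, and the largest TRBJ1 clonotype 1.19% and 2.46%. In number 12, of the same treatment, a TRBJ2-7 clonotype held 8.83% and 7.23%, and the count share was 4.86 points below the clonotype share. In concurrent number 1 the count share was 5.49 points above the clonotype share, and the largest TRBJ1 clonotype held a mean of 3.45% against 1.20% for TRBJ2. A large TRBJ2 clone did not always go with a low count share: in concurrent number 6 the largest TRBJ2 clonotype held a mean of 8.25%, and the count share was 3.39 points above the clonotype share. With the largest TRB clonotype of every sample left out, the brain lead-in difference in count share was -3.49 points and did not pass (exact permutation p = 0.244).

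Ovary metastases had lower TRBJ1 count shares than brain metastases of the same number, without passing the adjusted threshold. The ovary parts had 31.2% and 33.9% (untreated number 3), 30.5% and 32.9% (lead-in number 10), 29.2% and 30.9% (trametinib number 13), 35.8% and 29.01% (concurrent number 1) and 29.7% and 26.1% (lead-in combination number 12). The lead-in combination was the lowest on average in ovary as well as in brain, but both organs of that treatment include number 12, so they are not independent. Over the 5 numbers sampled in both organs the count share was 30.9% ± 2.0 in ovary and 35.6% ± 3.0 in brain (SD, n = 5 each). It was 4.69 points lower in ovary, and lower in each of the 5. An unpaired exact permutation test, two-sided, returned p = 0.0317, and 0.127 after adjustment over 4 measures. With the number as a block, an exact sign-flip test returned p = 0.0625, its lower limit, and adjusted p = 0.25. The clonotype share was 1.28 points lower in ovary and lower in 4 of 5 numbers (exact permutation p = 0.135, adjusted p = 0.270). The ovary samples were deeper throughout, and the part of depth in the difference was not tested.

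Within the cluster, TRBJ1-1 and TRBJ1-4 were the most used segments and TRBJ1-5 and TRBJ1-6 the least. Of distinct TRB clonotypes in brain, TRBJ1-1 held 8.94% ± 1.12 (SD, n = 10 numbers), TRBJ1-4 7.11% ± 1.14, TRBJ1-2 5.50% ± 0.72, TRBJ1-3 4.55% ± 0.93, TRBJ1-6 3.14% ± 0.88 and TRBJ1-5 3.02% ± 1.32. The order does not follow position in the locus. Of 15 pairs, 14 differed by the exact sign-flip test within numbers (93.3% called), with adjusted p from 0.00419 to 0.0146. The exception was the neighbouring pair TRBJ1-5 and TRBJ1-6, with a mean difference of -0.12 points ± 1.45 (SD, n = 10, exact sign-flip p = 0.801). TRBJ1-1 exceeded TRBJ1-4 in 9 of 10 numbers, by 1.83 points (exact sign-flip p = 0.00586, adjusted p = 0.00879). By share of counts, in which expanded clones weigh more, 9 of the 15 pairs passed.

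Ovary kept the same leading segments. There the clonotype shares were 9.81% ± 0.91 (SD, n = 5 numbers) for TRBJ1-1, 6.75% ± 0.78 for TRBJ1-4, 5.63% ± 0.54 for TRBJ1-2, 4.70% ± 0.22 for TRBJ1-3, 2.97% ± 0.26 for TRBJ1-6 and 2.88% ± 0.48 for TRBJ1-5. Within TRBJ1 clonotypes, TRBJ1-1 made up 27.8% ± 3.8 in brain and 30.0% ± 2.7 in ovary, and TRBJ1-4 22.0% ± 3.3 and 20.6% ± 2.2. The TRBJ2 segments ran from 5.62% ± 1.20 (TRBJ2-2) to 21.9% ± 2.4 (TRBJ2-7) of brain clonotypes, so the most used TRBJ1 segment was below TRBJ2-7 and close to TRBJ2-3, TRBJ2-4 and TRBJ2-5 at 9.87% to 9.94%.

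**Figure D2:**
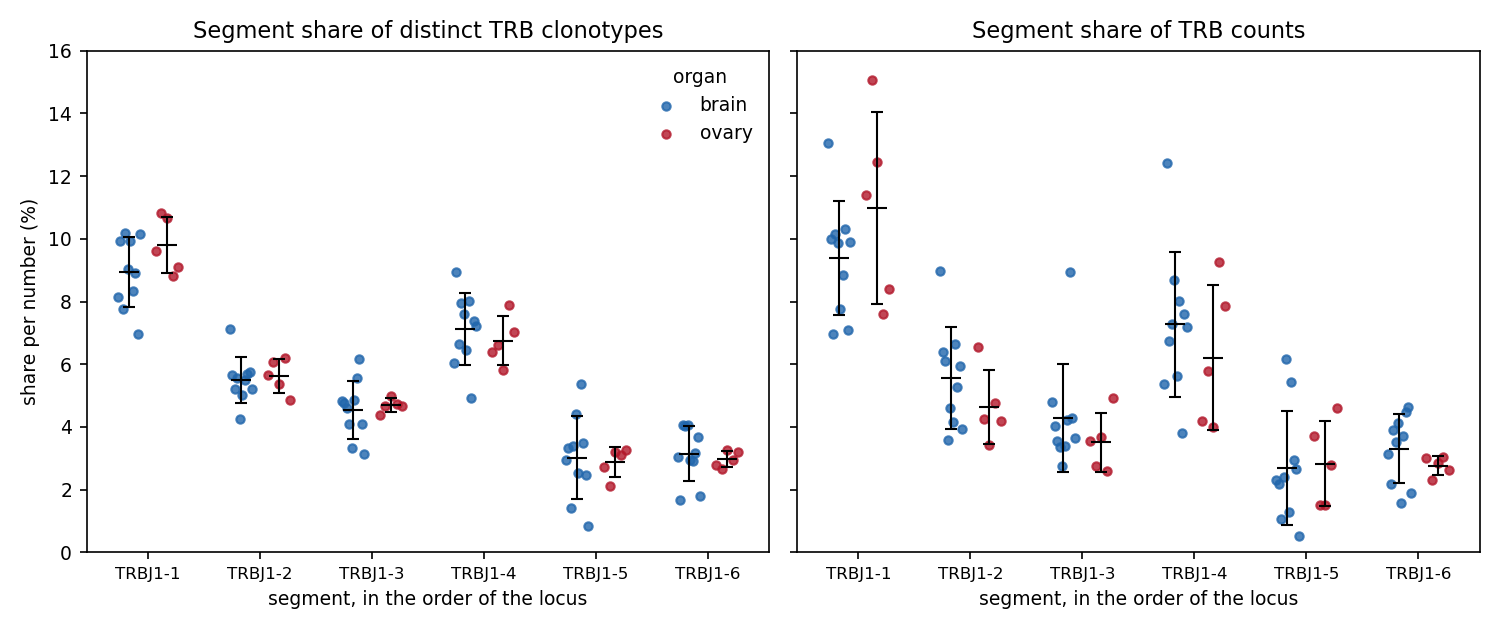
Share (%) of distinct TRB clonotypes (left) and of TRB counts (right) of each TRBJ1 segment, a point per number (parts averaged; blue, brain, n = 10; red, ovary, n = 5), with mean and SD in black. TRBJ1-1 and TRBJ1-4 lie highest by clonotypes, and the points of a segment spread further by counts.

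No TRBJ1 segment passed the test for treatment in brain. Segment counts of 10 brain libraries (parts of a number summed) were tested with edgeR's quasi-likelihood test over all 53 J segments of both chains, and 0 of 6 TRBJ1 segments and 0 of 6 TRBJ2 segments passed an adjusted p of 0.05 in any of 5 comparisons. The background was 1.89% of J segments called in the lead-in against untreated (TRAJ23 alone) and 0% in the other 4. At an unadjusted edgeR p under 0.05 there was 1 TRBJ1 segment in the concurrent combination against trametinib and 0 in the others. DESeq2 called 0 TRBJ1 segments in each, with 2 at an unadjusted p under 0.05 in that comparison and 2 when the combinations with and without a lead-in were compared.

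In the TRBJ1 segments of lowest p the numbers of a treatment differed from each other. TRBJ1-3 held 4.81% and 4.76% of TRB counts in the parts of concurrent number 1, 7.38% and 10.5% in those of number 6, and 1.73% to 3.77% in the 4 trametinib samples. The groups did not overlap, and the log2 difference was 1.11 ± 0.52 (SE; edgeR adjusted p = 0.699). How many of the other J segments also failed to overlap was not counted. Without concurrent or trametinib numbers in turn it ran from 0.57 to 1.498. Against the concurrent combination, the lead-in combination had 3.92% ± 0.46 of TRBJ1-2 (SD, n = 2 numbers) and 7.17% ± 2.53 (log2 difference -0.87 ± 0.43, edgeR adjusted p = 0.364). Concurrent number 1, with 9.03% and 8.92%, was above number 6, with 4.08% and 6.48%. TRBJ1-4 held 6.38% ± 1.26 in the lead-in combination and 10.5% ± 2.5 in the lead-in alone (log2 difference -0.71 ± 0.37, edgeR adjusted p = 0.653). In the lead-in alone it held 12.8% and 12.1% in number 10 and 9.93% and 3.53% in number 11, the last lying below the lead-in combination samples (5.08% to 7.99%).

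TRBJ1-5 differed widely between brain numbers for its low mean (2.69% ± 1.81 of TRB counts, SD, n = 10). It held 0.28% and 0.76% of TRB counts in trametinib number 8 but 6.82% and 5.51% in trametinib number 13, and 3.97% and 6.88% in untreated number 3 but 2.64% in number 7. The lead-in samples had 2.26%, 2.08%, 1.84% and 0.31%, all below the untreated samples (log2 difference -1.16 ± 0.85, edgeR adjusted p = 0.926). TRBJ1-1 and TRBJ1-6 had adjusted edgeR p-values of at least 0.762 in every brain comparison. Between organs, 0 TRBJ1 segments passed without the number as a block (0% of 53 J segments called, 0 TRBJ1 segments at an unadjusted p under 0.05). With the block 0 of 6 TRBJ1 segments passed (1 at an unadjusted p under 0.05, TRBJ1-4), and TRBJ2-1 was the 1 segment called (1.89%). TRBJ1-4 held 6.21% ± 2.28 in ovary and 8.32% ± 2.54 in brain (SD, n = 5 each, blocked log2 difference -0.45 ± 0.21, edgeR adjusted p = 0.328). The ovary mean was lower for 5 of the 6 segments and higher for TRBJ1-1 (11.01% ± 3.01 against 10.2% ± 1.1).

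CDR3s of the cluster averaged 13.90 ± 0.10 residues in brain (SD, n = 10 numbers, distinct clonotypes) and 13.94 ± 0.09 in ovary (n = 5). The difference of 0.065 residues between organs did not pass (n = 5 numbers in each organ, unpaired exact permutation p = 0.333, adjusted p = 0.444). With the number as a block the exact sign-flip p was 0.5. Brain group means over samples ran from 13.78 ± 0.08 (SD, n = 3, untreated) to 13.995 ± 0.159 (n = 4, lead-in). The differences with the lead-in and with anti-PD-L1 were 0.075 (exact permutation p = 0.311) and 0.073 residues (p = 0.322), and the one with trametinib was -0.00013. TRBJ2 CDR3s averaged 13.94 ± 0.11 in brain, 0.040 residues longer (exact sign-flip p = 0.502, adjusted p = 0.627). In ovary they averaged 14.11 ± 0.05, 0.167 residues longer and longer in 5 of 5 numbers (exact sign-flip p = 0.0625, the smallest possible, adjusted p = 0.104).

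Segments with longer runs had longer CDR3s. The mean length in brain was 13.37 ± 0.20 residues for TRBJ1-1 and 13.61 ± 0.24 for TRBJ1-2 (SD, n = 10 numbers), whereas TRBJ1-3, TRBJ1-4 and TRBJ1-6 averaged 14.32 ± 0.26, 14.31 ± 0.18 and 14.30 ± 0.41. TRBJ1-5 lay between at 14.07 ± 0.37. TRBJ1-4 was as long as TRBJ1-3 and TRBJ1-6 although its run is 6 residues long and theirs 7. These are descriptions, since the run length differs between segments by sequence.

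**Figure D3:**
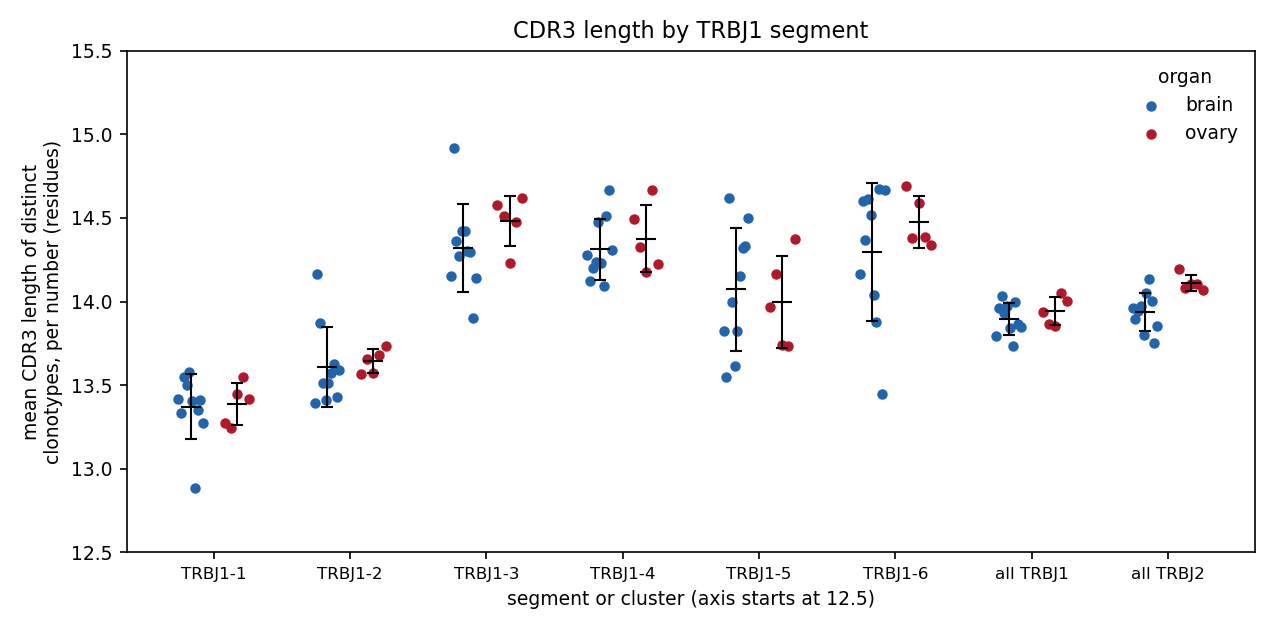
Mean CDR3 length (residues) of distinct clonotypes for each TRBJ1 segment and for both clusters, a point per number (parts averaged; blue, brain, n = 10; red, ovary, n = 5), with mean and SD in black; the axis does not start at 0. TRBJ1-1 is the shortest of the 6 in both organs, and the cluster means differ by less than the segments do.

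At similar total lengths the clusters differed in the mean makeup of the CDR3, while their segments overlapped. Each CDR3 was divided into the end that still matched its J segment's run and the rest. The rest holds the V end, the D segment, added nucleotides and any J residues ahead of the matching end. Clonotypes of all samples of an organ and number were pooled for this. In brain the rest averaged 8.30 ± 0.11 residues in TRBJ1 and 8.63 ± 0.10 in TRBJ2 (SD, n = 10 numbers), and was shorter in TRBJ1 in 10 of 10 numbers. In ovary it averaged 8.58 ± 0.04 and 8.93 ± 0.05 (n = 5) and was shorter in 5 of 5. The J part was longer in TRBJ1 in every number of both organs (5.59 against 5.33 residues in brain, 5.39 against 5.20 in ovary). By segment the clusters overlapped. In brain the mean rest ran from 7.71 (TRBJ1-3) to 8.62 (TRBJ1-1) and 8.64 (TRBJ1-4), and from 8.22 (TRBJ2-2) to 8.72 (TRBJ2-4). In ovary it ran from 8.20 (TRBJ1-3) to 8.87 (TRBJ1-1), and from 8.59 (TRBJ2-2) to 9.09 (TRBJ2-3). This division was chosen after the data had been seen and was given no test. Its values depend on where each run was cut, so the rest is not V, D and added residues alone. In RefSeq the D segment gene of the first cluster is 12 bases long and that of the second 14. Whether D length bears on the length of the rest was not tested.

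The D segment could be followed through short residue strings. Read in its frames, mouse TRBD2 can encode GLG or DWG, and TRBD1 can encode GQG or DRG. The strings can also arise from V ends or added nucleotides, so they are marks of sequence and not assignments. GLG or DWG occurred in 50 of 8995 TRBJ1 clonotypes (0.556%) and in 2534 of 18389 TRBJ2 clonotypes (13.8%). By number the share in TRBJ1 was 0% to 1.03% in brain and 0.490% to 0.793% in ovary, against 8.24% to 18.1% and 12.3% to 15.4% in TRBJ2, with no overlap in either organ. It was 0 in 4 brain numbers of 74 to 155 TRBJ1 clonotypes, which allows up to 1.94% to 4.05%.

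GQG or DRG occurred in 876 TRBJ1 clonotypes (9.74%) and 907 TRBJ2 clonotypes (4.93%). The share in TRBJ1 was above that in TRBJ2 in 9 of 10 brain numbers and 5 of 5 ovary numbers. Among TRBJ1 segments in ovary it ran from 7.95% ± 3.37 (TRBJ1-5) to 12.2% ± 2.7 (TRBJ1-4; SD, n = 5). The strings were chosen after the data had been seen and are given with no test.

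**Figure D4:**
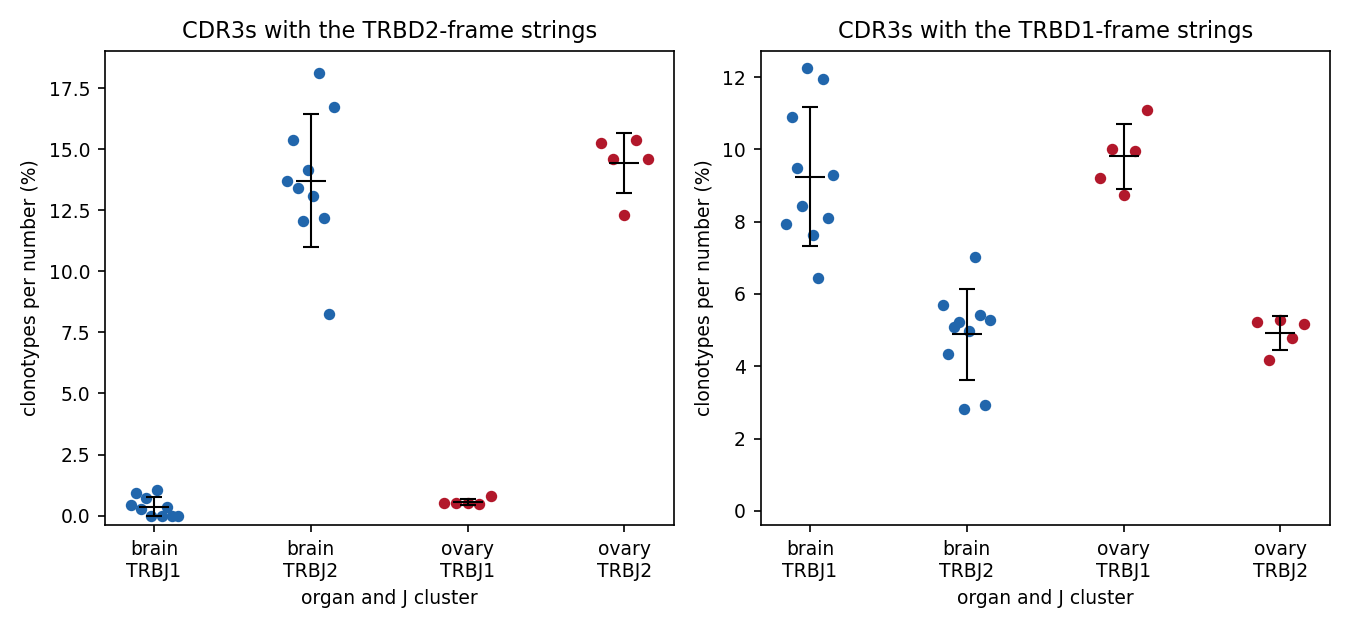
Share (%) of distinct clonotypes whose CDR3 holds GLG or DWG (left, TRBD2 frames) or GQG or DRG (right, TRBD1 frames), a point per number, by organ and J cluster, with mean and SD in black. On the left all TRBJ1 points lie at 1.03% or below and all TRBJ2 points at 8.24% or above.

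V segments differed in how often they were joined to TRBJ1. V segments are joined last, and all but TRBV31 lie upstream of both clusters. The TRBJ1 share among the clonotypes of each V segment was set against that among all other V segments within each of 10 numbers, both organs of a number together. Of 21 V segments tested, 6 passed (28.6%), 3 with a lower and 3 with a higher TRBJ1 share.

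TRBV17, TRBV16 and TRBV12-1 had less TRBJ1. The TRBJ1 share of TRBV16 clonotypes ran from 16% to 30.0% over numbers with a median of 23.6%, and lay below that of the other V segments in 10 of 10 numbers (mean 23.5% ± 4.9 against 32.99%, SD, n = 10, exact sign-flip p = 0.00195, adjusted p = 0.0273). TRBV17 had the lowest mean, 20.03% ± 9.80 against 32.6%, and was lower in 9 of 10 numbers (exact sign-flip p = 0.00391, adjusted p = 0.0273). Its values ran from 0% (number 7, 0 of 8 clonotypes, which allows up to 37.5%) to 38.8% (number 14). TRBV12-1 had 25.8% ± 7.4 against 32.4%, also lower in 9 of 10 numbers (exact sign-flip p = 0.00391, adjusted p = 0.0273).

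TRBV31, TRBV1 and TRBV29 had more. TRBV31, the only V segment that lies downstream of the TRBJ clusters and joins by inversion, had 39.5% ± 5.1 against 32.1%, higher in 8 of the 9 numbers with enough clonotypes (exact sign-flip p = 0.0117, adjusted p = 0.0410). Its values ran from 31.1% (number 1) to 47.5% (number 14). TRBV1, the V segment at the far end of the locus, had 37.1% ± 5.1 against 31.7% and was higher in 8 of 10 numbers (exact sign-flip p = 0.00781, adjusted p = 0.0410). TRBV29 had 37.0% ± 4.8 against 31.6% and was higher in 9 of 10 (exact sign-flip p = 0.0117, adjusted p = 0.0410). TRBV26 had the highest mean of all, 40.7% ± 11.5, but spread from 22.2% to 56.8% and did not pass (exact sign-flip p = 0.0391, adjusted p = 0.100). TRBV4 was low at 25.3% ± 7.7 (exact sign-flip p = 0.0313, adjusted p = 0.0938).

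**Figure D5:**
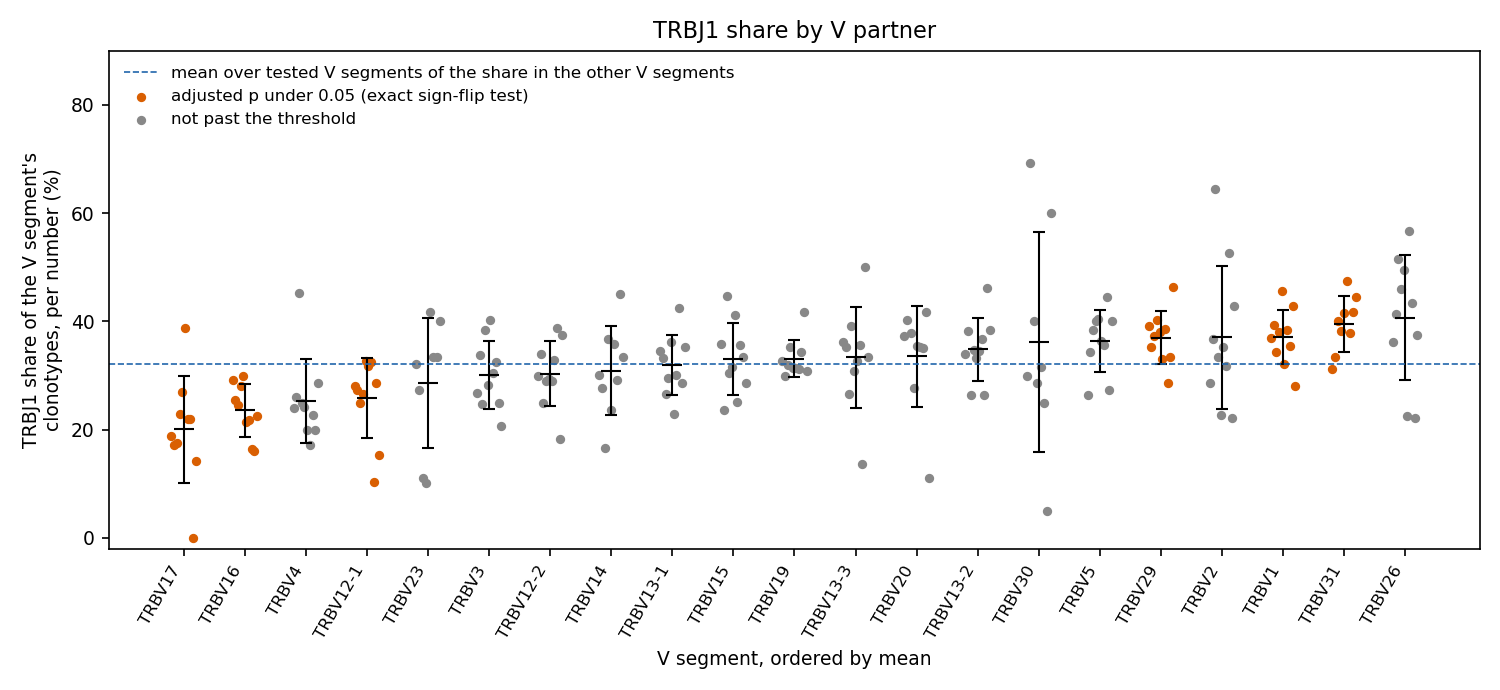
TRBJ1 share (%) of the clonotypes of each V segment, a point per number, ordered by mean, with mean and SD in black; orange marks adjusted p under 0.05 (exact sign-flip test over numbers) and the dashed line the mean share in the other V segments. TRBV17, TRBV16 and TRBV12-1 lie low, and TRBV29, TRBV1 and TRBV31 high.

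In the deeper ovary samples the means of the 6 lay on the same side of the other V segments. In 5 of 5 ovary numbers TRBV16 (26.3% ± 3.2) and TRBV17 (21.1% ± 4.3) lay below the other V segments, and TRBV1 (39.3% ± 3.0), TRBV29 (37.5% ± 1.9) and TRBV31 (36.2% ± 3.5) above them. The exact sign-flip p was 0.0625 for each, the smallest that 5 numbers allow. TRBV12-1 (29.4% ± 2.6 against 32.9%) lay below in 4 of 5 (exact sign-flip p = 0.125). TRBV4, TRBV14 and TRBV26, which are not among the 6, also lay to 1 side in 5 of 5. These samples are part of the test above and add no independent evidence. In brain alone 5 V segments passed: TRBV12-1, TRBV16, TRBV17 and TRBV31 of the 6, and TRBV5, which is not among them. TRBV1 (adjusted p = 0.105, exact sign-flip test) and TRBV29 (adjusted p = 0.727) did not pass there. With 1 number left out, 0 V segments passed without number 7, 10, 12 or 13 (lowest adjusted p = 0.0547, exact sign-flip test), 2 without number 3, and 4 or 5 without any other. Those counts include TRBV5 (without number 1) and TRBV4 (without number 11). The differences stayed between -10.2 and -8.64 points for TRBV16 and between -14.7 and -10.5 for TRBV17, while the smallest p that 9 numbers allow is 0.00391. At an unadjusted p under 0.05 (exact sign-flip test) 8, 7, 6 and 6 passed without those 4 numbers, against 9 with all. The directions of the 6 held under every alternative tried. With counts in place of clonotypes 2 V segments passed.

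By TRBJ1 segment, TRBV16 clonotypes used TRBJ1-1 at 9.64% ± 1.83 (SD, n = 10) and the other 5 at 1.19% ± 1.13 (TRBJ1-6) to 4.61% ± 2.77 (TRBJ1-4). TRBV17 clonotypes used TRBJ1-1 at 8.42% ± 6.32 and the other 5 at 0.621% ± 0.729 (TRBJ1-5) to 4.15% ± 2.85 (TRBJ1-4). Whether the lower use differed between segments was not tested. For TRBV31 the most used TRBJ1 segments were TRBJ1-4 at 9.97% ± 4.70 and TRBJ1-6 at 9.31% ± 5.79 (n = 9). Among all clonotypes of the cluster the most common partners, named after their values were seen, were TRBV13-2 (12.01% ± 2.53 of TRBJ1 clonotypes), TRBV29 (10.6% ± 1.5), TRBV19 (9.45% ± 2.41) and TRBV1 (9.19% ± 2.03). In TRBJ2 clonotypes these held 10.7% ± 2.2, 8.58% ± 1.55, 8.91% ± 1.53 and 7.29% ± 0.85.

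As a description, the V segments whose share of TRB counts was most like the TRBJ1 count share over the 10 brain numbers were TRBV13-1 (Spearman rho 0.49), TRBV31 (0.43) and TRBV15 (0.38). The values come from the same libraries and the points share their largest clones.

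Mean clone size did not differ detectably between the clusters, while the largest clone was more often TRBJ2. In brain a TRBJ1 clonotype had a mean of 3.45 ± 0.95 counts and a TRBJ2 clonotype 3.62 ± 1.76 (SD, n = 10 numbers, exact sign-flip p = 0.650, adjusted p = 0.650). In ovary the means were 9.96 ± 1.49 and 10.9 ± 2.2 (n = 5, exact sign-flip p = 0.25, adjusted p = 0.313). The largest TRBJ2 clonotype exceeded the largest TRBJ1 clonotype in 8 of 10 brain and 5 of 5 ovary numbers, with means of 4.76% ± 3.78 against 2.38% ± 0.66 of TRB counts in brain and 6.07% ± 2.20 against 3.24% ± 0.68 in ovary. That difference was not tested, and TRBJ2 has more clonotypes. Clonotypes seen with a single count made up 36.2% ± 5.5 of TRBJ1 and 39.8% ± 5.9 of TRBJ2 clonotypes in brain, lower for TRBJ1 in 7 of 10 numbers (exact sign-flip p = 0.0273, adjusted p = 0.0456). That call was lost on leaving out any of numbers 1, 3, 6, 7, 10, 13 or 14 (differences of -3.61 to -2.74 points). In ovary the shares were 30.5% ± 2.2 and 30.6% ± 1.8. By brain treatment a TRBJ1 clonotype had 2.44 ± 0.19 counts without treatment (SD, n = 3), 2.68 ± 0.55 with trametinib (n = 4), 3.30 ± 0.31 with the concurrent combination, 3.99 ± 0.94 with the lead-in and 4.77 ± 0.43 with the lead-in combination. Depth moves with that order at its ends, from 302 to 605 TRB counts in untreated samples to 4148 to 7067 in the lead-in combination, and its part was not tested.

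The Simpson concentration within TRBJ1 is the chance that a pair of its counts belongs to 1 clonotype. It was 1.98% ± 0.61 (SD, n = 3) in untreated brain, 2.18% ± 1.29 (n = 4) in the lead-in, 2.36% ± 0.71 in trametinib, 1.67% ± 0.75 in the concurrent and 1.65% ± 0.45 in the lead-in combination. The groups overlapped, and the lead-in difference over numbers was -0.06 points (exact permutation p = 0.911). In ovary it was 3.72% ± 1.66 (n = 2 parts) in the lead-in combination, with 4.89% and 2.55% in its parts, and group means of 1.73% to 2.21% in the other treatments, which have 1 number each and no test. Between organs it differed by 0.24 points (n = 5, exact permutation p = 0.698).

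Clonotypes holding at least 1% of the TRB counts of a sample were counted once for each such sample. Those counts came to 280 over the brain samples, 96 of them TRBJ1 (34.3%), and 113 over the ovary samples, 32 of them TRBJ1 (28.3%). A clonotype past the 1% line in both parts of a number is counted for each part. A TRBJ1 clonotype was the largest of its sample in 4 of 19 brain and 1 of 10 ovary samples. Shallow samples pass the 1% line with few counts: part 1 of lead-in number 10, with 266 TRB counts, alone had 18 such TRBJ1 clonotypes. In both parts of concurrent number 1 TRBJ1 made up 4 of 6 and 3 of 5 of these clonotypes, the highest shares seen, and in number 14 it made up 3 of 12 and 1 of 8.

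The CDR3s below led the cluster. They are shown because they carry the highest shares, and the end of each is the run of its segment, whole or trimmed. Leaders of 15 residues are named by their segments only.
TRBV16 with TRBJ1-1: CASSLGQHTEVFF
TRBV3 with TRBJ1-1: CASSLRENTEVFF
TRBV30 with TRBJ1-1: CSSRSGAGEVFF
TRBV5 with TRBJ1-1: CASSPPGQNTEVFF
TRBV4 with TRBJ1-2: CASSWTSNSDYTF
TRBV29 with TRBJ1-2: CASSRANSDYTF
TRBV12-1 with TRBJ1-5: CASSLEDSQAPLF

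Most of these clones were found in both organs of a number but at different shares. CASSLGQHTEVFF led the concurrent combination in both organs, with 5.24% of TRB counts (95% exact Clopper-Pearson interval 4.13% to 6.56%) and 0.438% (0.240% to 0.734%) in the brain parts of number 1 and 3.45% and 1.99% in its ovary parts. The intervals of the brain parts did not overlap. Such intervals cover counting error only and treat each count as independent, which is not known, since counts may be reads or molecules. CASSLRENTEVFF held 5.89% and 2.75% in the ovary parts of lead-in combination number 12, the highest TRBJ1 share of the ovary, and 1.25% and 1.47% in its brain parts. A TRBV5 with TRBJ1-4 clonotype was larger in the brain parts of the same number (3.67% and 2.23%) than in its ovary parts (1.57% and 0.911%). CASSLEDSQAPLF of trametinib number 13 held 2.18% and 2.05% in brain but 0.247% and 0.159% in ovary. The reverse held for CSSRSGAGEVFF of lead-in number 10, with 3.13% and 2.94% in ovary and 5 counts (0.744%) in 1 of its brain parts.

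Other leaders were seen in brain alone. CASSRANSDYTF led untreated brain with 10 counts in part 1 of number 3 (3.31%, interval 1.60% to 6.01%) and none in the other untreated brain samples. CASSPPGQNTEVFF had 20 counts in part 1 of trametinib number 8 (3.80%), which was not sampled in ovary. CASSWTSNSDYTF led the lead-in group from number 11 (1.52% and 2.59%), a number not sampled in ovary. Both leaders that occurred in 2 numbers had number 11 as the second. Another TRBV5 with TRBJ1-4 clonotype held 2.24% and 4.63% in the ovary parts and 2.76% and 1.42% in the brain parts of trametinib number 13, and 0.846% (45 counts) in brain part 1 of number 11. A TRBV2 with TRBJ1-1 clonotype led untreated ovary number 3 (2.84% and 2.01%) and held 0.583% and 0.236% in the brain parts of number 11. It was not counted in the brain parts of number 3, which held 302 and 320 TRB counts. Whether such sharing between numbers is of cells, of library or of independent rearrangement was not tested.

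Over all TRBJ1 clonotypes, 253 (2.81%) occurred in 2 or more numbers, against 550 TRBJ2 clonotypes (2.99%). By segment the share ran from 1.69% for TRBJ1-5 to 3.59% for TRBJ1-2. Shared TRBJ1 clonotypes had a mean CDR3 length of 13.68 residues and those of 1 number 13.96. Within a number, 21.7% to 36.4% of the TRBJ1 clonotypes of brain were also in ovary, and these held 32.2% to 57.1% of brain TRBJ1 counts. For TRBJ2 the ranges were 21.5% to 41.8% of clonotypes and 46.0% to 65.7% of counts. Of the ovary TRBJ1 clonotypes 2.09% to 15.4% were in brain, the highest share in lead-in combination number 12.

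The most widely shared TRBJ1 clonotypes were found in 8, 7 and 6 of the 10 numbers, and all 3 keep the whole run of their J segment. The first is shown because it is the cluster's most shared receptor chain.
TRBV3 with TRBJ1-3: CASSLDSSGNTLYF
It was present in 17 of 29 samples and in all 5 treatments, at 0.0160% to 0.993% of TRB counts where present. The lowest value was 1 count in brain part 2 of number 12, and the highest 3 counts in brain part 1 of untreated number 3. Its largest count was 146, in ovary part 1 of untreated number 3 (0.598%). The second, a TRBV5 with TRBJ1-4 clonotype, reached 1.69% in part 2 of trametinib number 8 with 6 counts and held at most 0.0823% elsewhere. The third, a TRBV31 with TRBJ1-6 clonotype, held 0.858% in an ovary part of concurrent number 1 and at most 0.100% elsewhere. Of the 39 TRBV31 clonotypes with TRBJ1-6, 6 occurred in 2 or more numbers and 3 in 3 or more, the third clonotype above among them. Of all 8995 TRBJ1 clonotypes, 253 (2.81%) occurred in 2 or more and 40 in 3 or more. No TRBV31 clonotype with any of the other 5 TRBJ1 segments occurred in 3 or more numbers. Those sets held only 13 (TRBJ1-5) to 51 (TRBJ1-4) clonotypes, in which a 0 says little, and no difference between them was tested.

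A TRBV1 with TRBJ1-2 clonotype of 15 residues, singled out after its values were seen, was both shared and abundant. It was found in numbers 1, 10, 12 and 13, and in all 8 ovary samples of those numbers it held 0.355% to 1.14% of TRB counts. It held 0.0494% to 1.10% in 5 brain samples of numbers 1, 12 and 13. It was not counted in either part of untreated ovary number 3.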

How the data were processed

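Receptor transcripts of 29 samples were extracted as RNA (AllPrep or mirVana kits) and sequenced as receptor libraries (QIAseq kit for immune repertoires), as the labels' protocols state. What the authors deposited is a table of whole-number counts per V segment, J segment and CDR3, with 1 column per sample. Its caller was not given in the sources used here, nor whether counts stand for reads or molecules. GRCh38, a human assembly, is the build in the submitters' processing notes, although the samples are mouse. Coordinates are therefore left out, and RefSeq GRCm38.p6 served for names and order only. Of 27517 TRB rows, 133 with an unresolved residue (0.0608% of TRB counts) were left out.

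Shares, CDR3 lengths and clone sizes were computed per sample, and parts averaged per number, with Python 3.11.15, pandas 2.3.3 and scipy 1.17.1. Tests were exact permutation tests (treatments within day, organs unpaired) or exact two-sided sign-flip tests within numbers. They were adjusted by Benjamini-Hochberg within each family at 0.05. V segments needed 5 clonotypes in at least 8 numbers. J segment counts of both chains were tested with edgeR 4.0.16 (quasi-likelihood, the chain's total as offset) under R 4.3.3; DESeq2 1.42.0 was tried as another tool. Each SE of a log2 difference is its size divided by the square root of the F value of the edgeR test. The scripts were tested on simulated data. Numbers 1, 3, 10, 12 and 13 were taken to pair the organs. Over 53 J segments, deviations from the mean of the 5 numbers in each organ correlated at 0.323 to 0.842 within each number. Number 13, the lowest at 0.323, did not match itself best in either organ. Its brain library correlated more with ovary number 1 (0.486), and its ovary library slightly more with brain number 10 (0.330). No 2 samples held identical values. Intervals and limits for a count of 0 (3 counts) cover counting error only.

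Named were all TRBJ1 segments, V segments past the threshold and those of highest or lowest mean share, each group's leading clonotype, the 3 largest per organ, the 3 most shared, and the 3 V segments most like the TRBJ1 share. The members and lists were chosen with earlier results of these data known.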

Additional observations from a re-analysis of the deposited data

Results flagged for a closer look

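The TRBJ1 share of TRB counts in part 1 of concurrent number 1 in brain, 39.8%, stood apart from the other 3 samples of its group, which lay between 35.4% and 35.9%. Its gap to the nearest was 0.890 of the group's range. It was 1 of 16 combinations of group and measure examined, and chance alone flags about 1 in 20. The largest TRBJ1 clonotype of that sample, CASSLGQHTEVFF, held 5.24% of its TRB counts.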

How the results depend on the processing

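No alternative carried a treatment or organ difference of the TRBJ1 measures past the threshold, and edgeR called 0 TRBJ1 segments under every setting tried, also with the number as a replicate block (TRBJ1-4 between organs -0.45, adjusted p = 0.328). For the organ count share the block gave adjusted p = 0.25, and over all alternatives the difference ran from -5.54 to -3.52 points. Among the brain TRBJ1 results 52 of 544 alternative values had the other sign. With parts summed the trametinib difference was 0.033 residues in CDR3 length and 0.12 points in concentration. With clonotypes of a single count left out it was 0.062 residues, the lead-in clonotype share -0.66 and the organ concentration -0.24. With samples under 500 TRB counts left out the trametinib differences were 0.20 (count share), 0.69 (clonotype share) and 0.40 (concentration). With the largest clonotype of each sample left out the anti-PD-L1 count share was 0.026, the trametinib length 0.0024 and the lead-in concentration 0.062, and with unresolved rows kept the trametinib length was 0.00019. By counts 9 segment pairs and 2 V segments passed. Leaving out 1 number or sample gave ranges of -2.94 to 1.13 for the anti-PD-L1 count share, and for clonotype share -0.38 to 1.94 (lead-in), -0.50 to 2.09 (anti-PD-L1) and -1.34 to 0.64 (trametinib). The trametinib length ran from -0.055 to 0.044. Concentration ran from -0.34 to 0.22 (lead-in), -0.53 to 0.14 (anti-PD-L1), -0.43 to 0.22 (trametinib) and -0.19 to 0.41 (organ). Between clusters, counts per clonotype ran from -0.26 to 0.077 and the single-count share from -4.31 to -2.74, and V segments passing from 0 to 5. The cause of these changes was not tested. The single-count share has no value with such clonotypes left out. Depth limits the brain values most, where a sample held as few as 266 TRB counts.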
